A study of Mus musculus with 2 samples.

Results

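The barcodes described here were dominated by haemoglobin RNA: each held at least 1000 unique molecular identifiers (UMIs, 1 for each captured transcript molecule), over 50% of them from the 4 adult globin genes Hbb-bs, Hbb-bt, Hba-a1 and Hba-a2, with fewer than 500 genes detected. They were chosen by these measured values, so the haemoglobin share and the number of genes are descriptions and not findings. In all, 2685 barcodes met this rule, of 5752 with 1000 or more UMIs and 2172776 listed in both matrices. The Paqr4 transgenic library held 1410 of them, which was 45.9% of its 3074 barcodes at 1000 or more UMIs (95% exact interval 44.1 to 47.6%). The WT library held 1275 of 2678, or 47.6% (45.7 to 49.5%). The study sequenced mouse cells of the stromal vascular fraction of subcutaneous white fat, sorted as CD45 negative, with droplet-based 3′ single-cell RNA-seq. The labels give Paqr4 transgenic and WT mice and name neither a promoter for the transgene nor an age or strain. Red cells carry no CD45, and the labels' protocol includes a red cell lysis step in both genotypes. Cells of 3 mice were pooled, without a statement whether 3 in all or 3 of each genotype, and each genotype is 1 library, so no difference between genotypes has a replicate check and none was tested. Xist was at 0.14 UMIs per 1000000 in the transgenic library's cells and 933 in the WT library's, while the Y-linked Ddx3y was at 109 and 0.88, so the libraries also differ in the sex of the mice, which the labels do not give. Genotype, library and sex cannot be told apart.

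As background, red cells are made in the bone marrow, where erythroblasts fill with haemoglobin, a tetramer of alpha and beta globin chains with haem, and then expel the nucleus. The cell released is a reticulocyte, which has no nucleus and makes no new RNA; over the following days it removes its mitochondria by mitophagy and its ribosomes and much of its proteome by degradation, and becomes a mature red cell. Its remaining messages are therefore those that the erythroblast left behind. Hbb-bs and Hbb-bt are the adult beta globin genes of the mouse single-type haplotype, Hba-a1 and Hba-a2 are the adult alpha globin genes, and Alas2 makes the erythroid form of the first enzyme of haem synthesis.

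The upstream sequences of these genes are shown because their messages set the group apart and because the alpha globin genes are so alike that counts can be split between them. Each is the 250 bases before the RefSeq gene start on GRCm38.p6, read 5′ to 3′ on the gene's strand. Capitals mark matches, on either strand, to 4 motifs. The first is CACCC, a box that KLF1 binds in erythroid cells. The second is the box CCAAT of many promoters. The third is GATAA, the core of many GATA1 sites, and the last is the TATA box letters TATAA.
Hbb-bs (chr7:103827929-103828178, minus strand): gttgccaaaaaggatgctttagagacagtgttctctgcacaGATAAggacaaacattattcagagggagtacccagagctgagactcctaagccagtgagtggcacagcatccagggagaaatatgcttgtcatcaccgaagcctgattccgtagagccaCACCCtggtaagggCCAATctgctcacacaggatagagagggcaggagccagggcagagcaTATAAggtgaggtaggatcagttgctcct
Hbb-bt (chr7:103813924-103814173, minus strand): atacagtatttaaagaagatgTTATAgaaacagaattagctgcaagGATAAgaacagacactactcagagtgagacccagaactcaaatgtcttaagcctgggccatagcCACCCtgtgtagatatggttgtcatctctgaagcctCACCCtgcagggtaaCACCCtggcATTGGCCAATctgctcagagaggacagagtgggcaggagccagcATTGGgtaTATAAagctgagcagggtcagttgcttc
Hba-a1 (chr11:32283422-32283671, plus strand): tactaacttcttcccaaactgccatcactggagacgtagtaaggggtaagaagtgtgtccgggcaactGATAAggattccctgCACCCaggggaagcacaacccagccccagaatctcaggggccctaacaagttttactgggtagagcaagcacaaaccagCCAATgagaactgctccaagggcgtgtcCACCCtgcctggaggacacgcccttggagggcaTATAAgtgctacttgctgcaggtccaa
Alas2 (chrX:150547167-150547416, plus strand): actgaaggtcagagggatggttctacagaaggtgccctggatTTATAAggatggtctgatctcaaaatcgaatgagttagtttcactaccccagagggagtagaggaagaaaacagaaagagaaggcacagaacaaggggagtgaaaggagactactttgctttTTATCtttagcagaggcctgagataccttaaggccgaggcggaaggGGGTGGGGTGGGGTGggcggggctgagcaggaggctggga
The Hbb-bs, Hbb-bt and Hba-a1 windows each held all 4 motifs, as did 0.968% of 32851 such windows over the genome. The Alas2 window held the others but not the CCAAT box, and some of its matches overlap one another. Singly these letters are common: the KLF1 box was in 52.0% of windows, the CCAAT box in 33.8%, the GATA core in 22.6% and the TATA letters in 22.8%. A match describes the letters and is not a site. Hba-a2 (chr11:32296242-32296491, plus strand) is not printed because 247 of its 250 bases were aligned to the Hba-a1 window with no mismatch. The Hbb-bs and Hbb-bt windows aligned over 247 columns with 73.7% identity. In the GENCODE transcripts, Hba-a1 and Hba-a2 aligned over 538 columns with 1 mismatch, so how their reads were divided is uncertain, while Hbb-bs and Hbb-bt aligned over 609 columns with 37 mismatches.

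Haemoglobin made up 97.7% of the UMIs of the transgenic haemoglobin-dominated barcodes and 97.2% of the WT ones; these shares were what the rule used. The transgenic barcodes had a median of 8945.5 UMIs (range 1001 to 26874) over a median of 69 genes, and the WT barcodes 8439 UMIs (1001 to 29966) over 81 genes. They held 27.9% of all UMIs of the transgenic library and 93.5% of its haemoglobin UMIs, against 25.8% and 88.8% in the WT library. Few fell near the haemoglobin limit: 0 transgenic and 3 WT barcodes that met the rule lay between 50 and 70%, and 9 and 7 barcodes of 1000 or more UMIs lay between 30 and 50%, with medians of 3409 and 3997 genes. The limit on UMIs cut through more barcodes, with 130 transgenic and 120 WT barcodes from 1000 to under 2000 UMIs, and 51 and 99 from 500 to under 1000 that met the rest of the rule. Over 50% haemoglobin with 500 or more genes was found in 2 transgenic barcodes and 1 WT barcode.

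**Figure D1:**
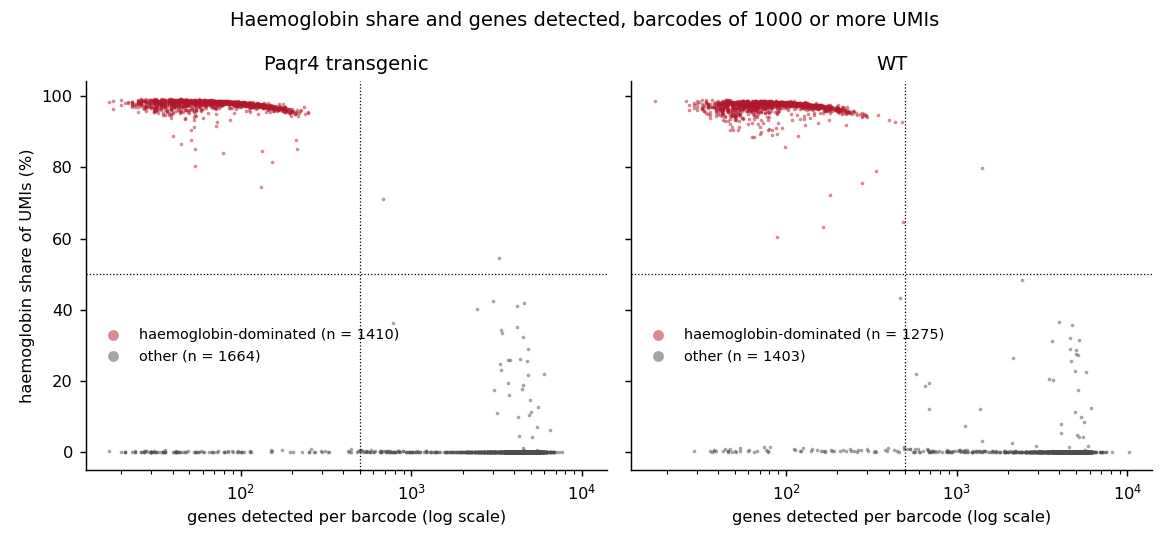
Share of UMIs from the 4 globin genes (vertical axis, %) against genes detected (horizontal axis, log scale) in every barcode of 1000 or more UMIs; each point is 1 barcode, red points met the rule, and dotted lines mark 50% and 500 genes. The 1410 transgenic and 1275 WT points form a group near the top, with few points between it and the barcodes near 0.

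The label of red cells and reticulocytes was checked with genes that the rule did not use. Alas2 was found in 88.7% of the transgenic and 87.8% of the WT haemoglobin-dominated barcodes, at medians of 8945.5 and 8439 UMIs. In the barcodes with 1000 or more UMIs and 500 or more genes, called cells here, it was found in 3.60% of transgenic and 4.70% of WT ones, at medians of 18621 and 21534 UMIs. With every barcode thinned to 1000 UMIs, which left none out, the transgenic shares were 57.7% and 0.579%, and the WT shares 61.7% and 0.597%. Markers of other blood cells were near 0. The 10 platelet and megakaryocyte genes held 0 transgenic and 1 WT UMI, the 10 neutrophil genes held 0 in each library, the 10 macrophage and monocyte genes held 1 and 2, the 9 T and NK cell genes held 0 in each, and the 9 B and plasma cell genes held 7 and 1. Of the barcodes, 742 transgenic ones were also listed in the WT library, at a median of 1 UMI there, and 557 WT ones in the transgenic library, likewise at 1; 2 barcodes met the rule in both libraries.

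Among themselves the barcodes differed in which globin genes they used. Hbb-bs held 51.3% of the haemoglobin UMIs in transgenic barcodes and 51.9% in WT barcodes, Hba-a1 23.1% and 22.5%, Hba-a2 17.5% and 17.4%, and Hbb-bt 8.16% and 8.24%. The alpha to beta UMI ratio was 0.683 in the transgenic barcodes (95% interval 0.682 to 0.684, counting error only) and 0.664 in the WT barcodes. In free RNA, taken from the 838916 transgenic and 968733 WT barcodes with 1 to 50 UMIs, it was 0.722 and 0.645. The Hbb-bt share of beta globin UMIs was 13.7% in each library over the sum, but ranged across barcodes from 0.143 to 30.1% in the transgenic library, with a median of 10.5%, and from 0 to 28.2% in the WT library, with a median of 8.96%. Its SD across barcodes was 7.07 and 7.45 percentage points, where counting error alone gives 0.674 and 0.665. The alpha share of haemoglobin UMIs also varied, with SDs of 6.20 and 5.94 points beside 0.705 and 0.713 from counting. Per barcode, the alpha to beta ratio ran from 0.260 to 5.12 in the transgenic library and from 0.207 to 4.84 in the WT library. The Hba-a1 share of alpha globin UMIs was much more even, with SDs of 2.82 and 2.77 points beside 1.09 and 1.14 from counting.

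The Hbb-bt share was higher in barcodes with more UMIs. Split into quartiles of UMIs, the transgenic barcodes had Hbb-bt shares of 3.11, 6.66, 14.5 and 18.2% from the fewest to the most UMIs. The WT barcodes had 3.42, 5.03, 13.2 and 18.8%. Across barcodes the rank correlation of the share with UMIs was 0.866 over 1410 transgenic barcodes and 0.838 over 1275 WT barcodes; the UMIs of Hbb-bt are themselves part of the total, and all barcodes of a genotype share 1 library. The alpha to beta ratio did not follow the same order: it was 0.808, 0.683, 0.647 and 0.690 over the transgenic quartiles and 0.723, 0.652, 0.643 and 0.675 over the WT quartiles, highest in the barcodes with the fewest UMIs in each library.

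Outside haemoglobin, the transgenic barcodes held 279986 UMIs in all, a median of 151.5 each, and the WT barcodes 313836, a median of 176. These were set against the non-haemoglobin UMIs of free RNA, 1429531 in the transgenic library and 2296185 in the WT library. Levels are UMIs per 1000000 non-haemoglobin UMIs (UPM); each molecule was counted at its 3′ end, so levels were not divided by length. Of 950 genes with a mean level of at least 100 UPM over the transgenic pools, 227 (23.9%) were 2-fold or more higher in the haemoglobin-dominated barcodes than in free RNA and 622 (65.5%) were 2-fold or more lower. Of 831 in the WT library, 224 (27.0%) were higher and 514 (61.9%) lower. A gene passed this floor through its level in either pool. A gene scarce in free RNA passed only where it was high in these barcodes. List counts of higher genes, and list medians set beside the median over all genes, therefore partly follow from the floor. A gene abundant in free RNA passed even where it was low in these barcodes, so counts of lower genes do too. The libraries shared 207 of the higher genes, 91.2% of the transgenic list and 92.4% of the WT list, and 483 of the lower, 77.7% and 94.0%; no gene was 2-fold higher in one and 2-fold lower in the other. The median log2 ratio over all these genes was -3.13 in the transgenic library and -2.24 in the WT library. All intervals on these ratios cover counting error only.

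**Figure D2:**
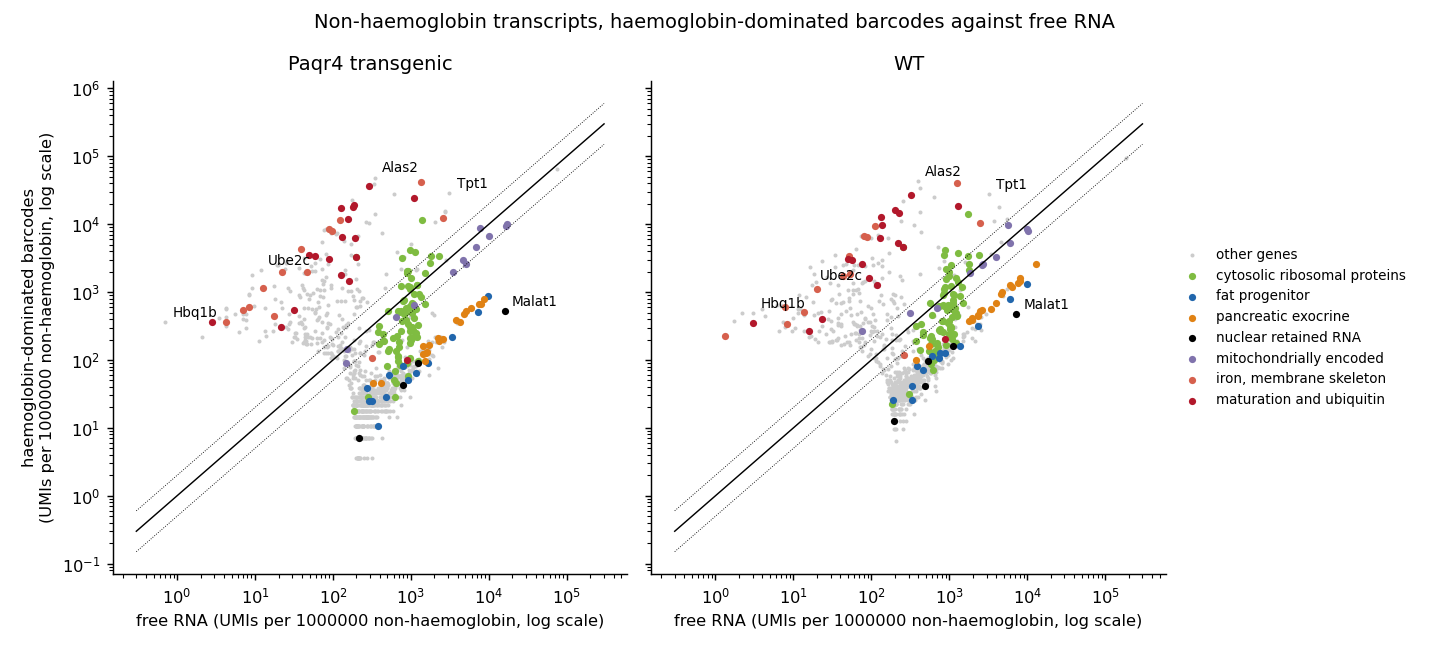
Level of each gene in haemoglobin-dominated barcodes (vertical axis) against free RNA (horizontal axis), in UMIs per 1000000 non-haemoglobin UMIs on log scales; points are the 946 transgenic and 831 WT genes past 100 UPM that have UMIs in both pools, coloured by gene list, with a solid line at equal levels and dotted lines at 2-fold. The iron, membrane and maturation lists lie above the lines except for 2 genes, 1 of them Cd47, and fat progenitor, pancreatic exocrine and nuclear genes lie below them.

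Alas2 and the theta globins stood high above free RNA. Alas2 had 48520 UPM in the transgenic barcodes, from 13585 UMIs, and 342 in transgenic free RNA, a log2 ratio of 7.15 (7.02 to 7.28). It had 42522 UPM in the WT barcodes, from 13345 UMIs, and 398 in WT free RNA, a log2 ratio of 6.74 (6.64 to 6.84). Only Alas2 and Fech, which inserts iron into haem, were past the level floor among 12 haem synthesis genes, and both were higher; Fech was at 7075 UPM in the transgenic barcodes and 108 in free RNA, and at 6220 and 91.0 in the WT library. The theta globins Hbq1b and Hbq1a, minor genes of the alpha cluster, had few UMIs, most of them in these barcodes. Hbq1b had 101 UMIs in the transgenic barcodes and 1 in free RNA, and 152 and 7 in the WT library. Hbq1a had 254 and 12 UMIs in the transgenic library and 280 and 27 in the WT library. The embryonic genes Hba-x, Hbb-bh1 and Hbb-bh2 had 0 UMIs in the haemoglobin-dominated barcodes of each library. Hbb-y, also embryonic, had UMIs in these barcodes in each library but was not past the level floor. From the list of globin chaperones and haem-regulated translation, the globin chaperone Ahsp matched no feature and so was not measured. Of 3 genes of this list past the floor, 3 were lower in the transgenic library, with a median of -1.93. In the WT library 2 were lower, with a median of -2.66. Of all genes past the floor, 65.5% and 61.9% were lower, with medians of -3.13 and -2.24. Hspa8, a chaperone of most cells, had log2 ratios of -3.56 and -2.70.

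All 6 of the iron genes past the floor, of 17 measured, were 2-fold or more higher, with median log2 ratios of 5.86 in the transgenic and 5.23 in the WT library, against -3.13 and -2.24 over all genes. Of all genes past the floor, 23.9% and 27.0% were higher. Slc25a37, the mitochondrial iron importer mitoferrin, was at 8404 UPM in the transgenic barcodes and 88.8 in free RNA, and at 6765 and 79.7 in the WT library. Isca1, which builds iron-sulphur clusters, was at 7833 and 97.2 UPM, and at 6523 and 87.5. Ftl1, the ferritin light chain, was among the most abundant messages, at 42274 UPM in the transgenic and 40827 in the WT barcodes, but cells held it too, at 897 and 818 UPM. Fth1, the ferritin heavy chain, had the smallest ratio of the 6, with log2 2.26 and 2.07.

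Of 26 membrane and membrane skeleton genes, 8 were past the floor, and 7 of these were higher and 1 lower in each library, with medians of 6.37 and 5.92. Over all genes 23.9% and 27.0% were higher. Epb41, protein 4.1 of the spectrin skeleton, was at 11476 UPM in the transgenic barcodes and 124 in free RNA, and at 9362 and 112 in the WT library. Cd24a was at 4254 and 39.2 UPM in the transgenic library and at 3381 and 51.4 in the WT library. Slc4a1, the band 3 anion exchanger, was at 600 and 8.39 UPM, and at 602 and 7.84. The gene that was lower was Cd47, which many cell types carry.

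Of 29 genes of reticulocyte maturation, mitophagy and ubiquitin conjugation, 18 were past the floor. Of these, 17 were higher and 1 lower in each library, with medians of 5.38 and 5.34, where 23.9% and 27.0% of all genes were higher. Together the 29 genes held 157751 UPM in the transgenic barcodes and 4399 in free RNA, and 128315 and 4582 in the WT library. Mkrn1, a RING-type ubiquitin ligase, was at 36459 UPM in the transgenic barcodes and 291 in free RNA, and at 27068 and 323 in the WT library. Ube2l6, a conjugating enzyme of ISG15 and ubiquitin, was at 19026 and 183 UPM, and at 16448 and 203. Bnip3l, the mitophagy receptor needed for reticulocytes to lose mitochondria, had log2 ratios of 6.64 and 6.04, and Gabarapl2, an ATG8 protein of autophagosomes, 6.24 and 6.15. Ube2o, which in reticulocytes marks ribosomal proteins for removal, had 6.18 and 5.93. Tent5c, a poly(A) polymerase, was at 17115 and 127 UPM in the transgenic library and at 12612 and 134 in the WT library. Ubb, a polyubiquitin gene, had log2 ratios of 4.47 and 3.85.

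Among messages known from whole blood, 14 of 15 past the floor were higher in each library. This list was written as genes of red cells, so its direction is no independent evidence. The same holds for the iron, membrane and maturation lists, which were chosen with earlier results of these data known. Bpgm makes 2,3-bisphosphoglycerate, which lowers the oxygen affinity of haemoglobin. It was at 38984 UPM in the transgenic barcodes and 334 in free RNA, and at 33744 and 422 in the WT library. Of 15 glycolysis genes, 3 in the transgenic and 2 in the WT library were past the floor, and of these Bpgm alone was higher; Aldoa, aldolase A, had log2 ratios of -2.51 and -2.26, and Hk1, Pfkl, Pgk1 and Eno1 had 0 UMIs in these barcodes in each library. Of 11 redox and carbonic anhydrase genes past the floor, 7 were higher and 3 lower in each library. Over all genes 23.9% and 27.0% were higher, and 65.5% and 61.9% lower. Gpx1, a peroxidase, had log2 ratios of 5.37 and 5.50, and Car2, carbonic anhydrase, 6.72 and 6.10. Prdx1 had -2.14 and -1.94, and Txn1, thioredoxin, -3.58 and -2.93.

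By ratio, the 15 highest genes past the floor in both libraries included Hbq1b, Prxl2a, Fam220a, Trim10, Alas2, Tspo2, Apol11b, Rsad2, Tent5c, Nusap1, Ucp2, AI662270, Tspan33 and Slc25a37, and the 15 had log2 ratios from 6.43 to 9.01 in the transgenic and from 6.41 to 7.42 in the WT library. Rsad2, an interferon-inducible gene, was at 2839 UPM in the transgenic barcodes and 25.9 in free RNA, and at 3464 and 34.4 in the WT library. Ucp2, a mitochondrial carrier, was at 8490 and 81.8 UPM, and at 6720 and 72.7. The interferon response list, which does not hold Rsad2, was mostly lower. In the transgenic library 1 gene was higher and 5 lower of 6 past the floor, with a median of -2.31. In the WT library 2 were higher and 4 lower of 7, with a median of -1.54. Among all genes past the floor, 23.9% and 27.0% were higher and 65.5% and 61.9% lower, with medians of -3.13 and -2.24. A lower level is therefore not particular to the interferon list. Of the genes of dividing erythroblasts, Ube2c, a cell cycle ubiquitin enzyme, alone was past the floor, with 583 UMIs in the transgenic barcodes and 17 in free RNA, and 397 and 40 in the WT library, while Mcm2, Mcm5, Mcm6 and Cdk1 had 0 UMIs in each. Of 16 erythroid regulators only E2f2 and Lmo2 were past the floor, at log2 ratios of 6.89 and 3.23 in the transgenic and 5.37 and 3.43 in the WT library. Kit and Epor, receptors of erythroid progenitors, had 0 UMIs in each.

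Nuclear RNAs and fat progenitor messages were lower than in free RNA, as were most genes past the floor. None of 10 adipocyte genes was past the floor. Their summed level was 0.879 times that of free RNA in the transgenic library, from 21 UMIs in these barcodes, and 0.620 times in the WT library, from 10 UMIs. Of 10 blood endothelial genes, 2 were past the floor. In the transgenic library 1 of these was lower, and in the WT library 1 was higher and 1 lower. The 10 together were at 0.259 and 0.470 times their level in free RNA, from 78 and 124 UMIs. Malat1, a long RNA that stays in the nucleus, had 147 UMIs in the transgenic barcodes, or 525 UPM, and 16029 UPM in free RNA, a log2 ratio of -4.93 (-5.18 to -4.70). In the WT library it had 148 UMIs, or 472 UPM, and 7205 in free RNA, -3.93 (-4.18 to -3.70). All 4 nuclear RNAs past the floor in the transgenic library and all 5 in the WT library were lower. The 10 lowest genes past the floor in both libraries were Ltbp1, Opcml, Efna5, Tgfbr3, Gpc6, Rian, Cygb, Adamtsl1, Malat1 and Lima1. All 13 fat progenitor genes past the floor, of 14, were lower, with medians of -3.83 and -2.89. Of all genes past the floor, 65.5% and 61.9% were lower, with medians of -3.13 and -2.24, so a lower level is not particular to this list. The sum of the 14 was 2093 UPM in the transgenic barcodes and 27226 in free RNA, and 3292 and 24392 in the WT library. Dcn, decorin, had 514 UPM in the transgenic and 797 in the WT barcodes, and Col3a1, a fibrillar collagen, 218 and 315. The immediate early genes, which cell dissociation induces, were lower for 13 of 14 in the transgenic and 14 of 15 in the WT library; the exception was Jund, at log2 0.86 and 0.65. Their medians of -3.48 and -2.75 lay near those over all genes, -3.13 and -2.24, of which 65.5% and 61.9% were lower, so the count is not particular to these genes. How much of these remaining UMIs is free RNA caught in the droplets was not tested.

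Ribosomal protein messages were uneven. Of 82 past the floor, 8 were higher and 44 lower in the transgenic library, and 7 higher and 40 lower in the WT library, with medians of -1.13 and -0.98, less far below free RNA than the medians of -3.13 and -2.24 over all genes. Of all genes, 65.5% and 61.9% were lower. The summed level of 87 such genes was near that of free RNA, at 72489 UPM in the transgenic barcodes and 73033 in free RNA. In the WT library it was 82865 and 76117 UPM. Rpl41 had log2 ratios of 3.03 and 2.99, and Rplp0, of the ribosomal stalk, 2.10 and 2.24. Rps25 had 28.6 UPM in the transgenic barcodes and 626 in free RNA, and 98.8 and 637 in the WT library, with log2 ratios of -4.45 and -2.69. Gm42418, a predicted gene that overlaps ribosomal RNA, took the most UMIs of all, 65389 UPM in the transgenic barcodes and 75458 in free RNA, and 94871 and 187271 in the WT library.

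Mitochondrially encoded RNA was concentrated in few barcodes. It made up 4.84% of the non-haemoglobin UMIs of the transgenic barcodes and 7.36% of free RNA, against 4.32% and 4.40% in the WT library. None of 12 such genes past the floor was 2-fold different in the transgenic library and 1 of 11, mt-Nd4l, was in the WT library. By comparison, 23.9% and 27.0% of all genes past the floor were higher and 65.5% and 61.9% lower. Of the transgenic barcodes, 26 (1.84%) had over 10% of their non-haemoglobin UMIs from these genes, and they held 70.3% of all such UMIs; of the WT barcodes, 36 (2.82%) held 64.2%. The highest transgenic barcode had 4584 mitochondrial among 4878 non-haemoglobin UMIs, and the highest WT barcode 3322 among 3748. At the other end, 30.4% of transgenic and 31.8% of WT barcodes had 0. Without the barcodes over 10%, the shares were 1.51% and 1.64%, beside 7.36% and 4.40% in free RNA, which was not cut in this way. Leaving out barcodes for a high mitochondrial share lowers the share of the rest, so this drop follows from the cut.

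The size of a barcode went with its messages as well as with Hbb-bt. Bpgm had 7175, 16275, 36554 and 52111 UPM over the transgenic quartiles from the fewest to the most UMIs, and 6291, 11796, 29505 and 47981 over the WT quartiles. Mkrn1 had 4392, 15497, 42493 and 44385 UPM, and 4053, 9937, 28084 and 36148. Alas2 was highest in the third quartile of each library, at 62335 UPM in the transgenic and 55881 in the WT barcodes. Tpt1, which encodes the translationally controlled tumour protein, ran the other way, with 57880 UPM in the first and 18556 in the fourth transgenic quartile, and 41018 and 21050 in the WT quartiles. Gm42418 also had a smaller share in the larger barcodes, at 156114 and 43300 UPM, and at 172990 and 61872. UMIs per barcode, genes detected and these shares moved together (rank correlations of UMIs with genes were 0.905 and 0.873), and whether depth, free RNA or the cells themselves set them was not tested.

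**Figure D3:**
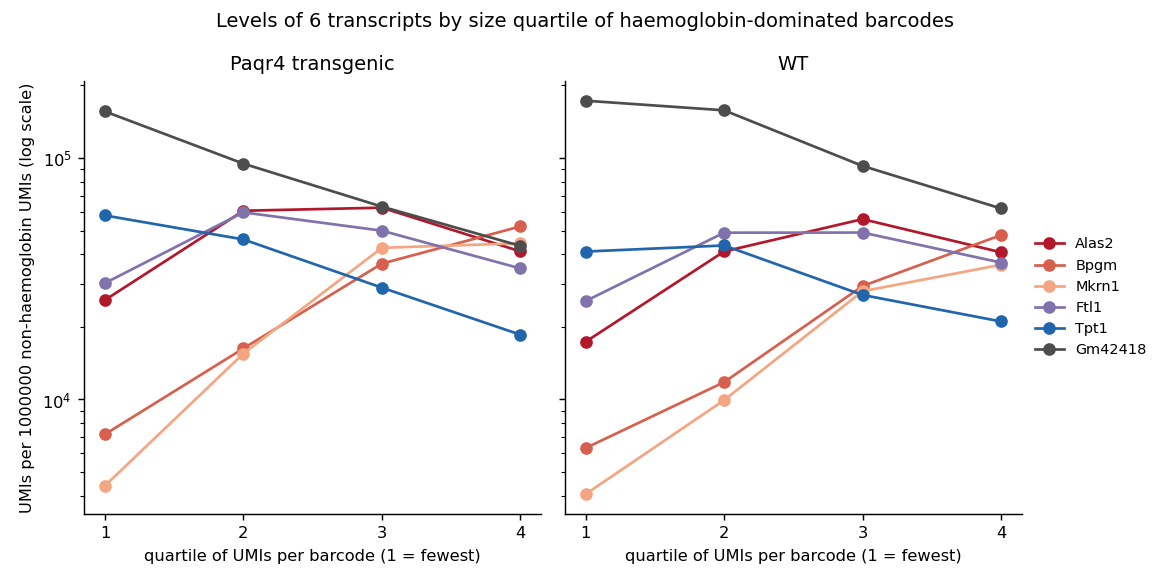
Levels of 6 transcripts (vertical axis, UMIs per 1000000 non-haemoglobin UMIs, log scale) by quartile of UMIs per haemoglobin-dominated barcode (horizontal axis), transgenic on the left and WT on the right. Bpgm and Mkrn1 are highest in the fourth quartile, Tpt1 and Gm42418 are lowest there, and Alas2 is highest in the third.

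Most genes differed by less than 2-fold between the genotypes. Of 359 genes at 200 UPM or more in either library, 4 (1.11%) were 2-fold or more higher in the Paqr4 transgenic barcodes than in WT barcodes and 31 (8.64%) were 2-fold or more lower, with a median log2 ratio of -0.02. Paqr4 itself had 0 UMIs in the haemoglobin-dominated barcodes of each library, which allows up to 10.7 UPM in the transgenic and 9.56 in the WT barcodes; free RNA held 7.69 and 6.97 UPM, so a difference was not detectable at this depth. The reporter eGFP had 0 UMIs in these barcodes and in cells of each library. Cells held Paqr4 at 9.46 UPM in the transgenic and 8.10 in the WT library.

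The leading red cell messages differed by less than 2-fold. The log2 ratio of transgenic over WT barcodes was 0.19 for Alas2 (0.16 to 0.23), 0.21 for Bpgm and 0.43 for Mkrn1. Among the red cell lists, the medians were 0.18 for iron genes, 0.29 for membrane genes, 0.22 for maturation genes, 0.04 for redox genes and -0.21 for globin chaperones. For maturation genes 1 of 18 was 2-fold lower, and for globin chaperones 1 of 3, Hsp90aa1, was 2-fold higher. By comparison, 8.64% of all 359 genes were lower and 1.11% higher. The Hsp90aa1 ratio rests on few barcodes, as given below. From the redox list, Prdx2, a peroxiredoxin abundant in red cells, was higher. It had 5575 UPM, found in 33.0% of barcodes, in the transgenic library, against 2715 UPM, found in 22.4%, in the WT library, a log2 ratio of 1.04 (0.92 to 1.16). In the cells Prdx2 was at 96.4 and 82.7 UPM and in free RNA at 136 and 120 UPM. Gm8797, a predicted gene, had the highest ratio, 4.10, with 1261 UPM in the transgenic and 73.3 in the WT barcodes, and it was also higher in transgenic cells, at 64.5 against 6.05 UPM in WT cells. Hsp90aa1, a chaperone, had 200 UPM in the transgenic and 82.8 in the WT barcodes, but 57.1% of its 56 transgenic UMIs lay in 5 barcodes, and without the 5 barcodes richest in it in each library the log2 ratio was 0.35, against 1.27 with them. Nudt4 had 58 UMIs in the transgenic and 32 in the WT barcodes.

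Several of the genes that were lower in the transgenic barcodes encode digestive enzymes of the pancreas. Of 21 pancreatic exocrine genes, a list written after such messages were seen, 17 were past 200 UPM in either library and all of these were 2-fold or more lower, 17 of the 31 lower genes; the list was chosen on these values, so its count supports nothing. The 21 genes together held 5961 UPM in the transgenic barcodes and 16085 in the WT barcodes, beside 65078 and 82171 UPM in free RNA and 1286 and 7472 UPM in cells. Reg1, a pancreatic secreted protein, had 121 UPM in the transgenic and 545 in the WT barcodes, with 1426 and 2642 UPM in free RNA. Ptx3 and Tnfaip6, secreted by inflamed stromal cells, had 32.1 and 114 UPM in the transgenic barcodes and 207 and 424 in the WT barcodes, with 420 and 1900 UPM in transgenic free RNA and 1011 and 2566 in WT free RNA. Gm16867 had 46.4 UPM in the transgenic and 554 in the WT barcodes, at log2 -3.58, with 1 and 9 UMIs in free RNA. The interferon-induced genes Isg15 and Irf7 were at 1164 and 129 UPM in the transgenic barcodes and 1788 and 347 in the WT barcodes, log2 ratios of -0.62 and -1.43. Over the interferon list as a whole, 4 of 12 genes were past the floor and 1 of these was 2-fold lower, beside 8.64% of all genes.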

How the data were processed

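The deposited matrices hold raw UMI counts per gene and barcode, unfiltered for cells, for 32286 features; the authors' unit is counts, with no normalization. Cell Ranger 7.0.0 and mm10 are named in the submitters' processing notes, while the matrix header names version 4. Features with the same symbol were summed (32246 symbols). The library totals were 43084906 UMIs in the Paqr4 transgenic and 44145257 in the WT library. No cell caller, doublet caller or ambient correction was applied here; 0 per-sample columns were left unused.

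UMIs were summed over haemoglobin-dominated barcodes, over free RNA (barcodes with 1 to 50 UMIs) and over cells (1000 or more UMIs, 500 or more genes), and divided by all UMIs outside the 4 globin genes. A gene at 0 was set to 3 UMIs, making its ratio a bound. Levels carry exact Poisson, shares exact Clopper-Pearson and ratios exact conditional binomial 95% intervals, which cover counting error only; UMIs remove PCR copies. With 1 library per genotype no test was made. Level floors were a mean of 100 UPM over the 2 pools, or 200 UPM in either library between genotypes. Genes were named by rule: the 15 highest and 10 lowest ratios (the smaller of the 2 libraries' values counting, genes named Gm or Rik left out), the 10 with most UMIs, the 5 highest and 5 lowest between genotypes, the marker genes and up to 4 of each list. Other genes named beside these, as examples of a list or members at 0, were chosen after their values were seen. The barcodes and lists were chosen with earlier results of these data known. Some genes named by this rule are not reported here. The ratio code was tested on simulated data. Promoters came from RefSeq tables (5 of 5 genes matched; all printed windows on GRCm38.p6), trimmed to 250 upstream bases. GENCODE M21 gave transcripts. Python 3.11.15, numpy 2.4.6, pandas 2.3.3, scipy 1.17.1, matplotlib 3.10.9 and Biopython 1.88 were used. Alternatives covered the limits on UMIs, haemoglobin and genes, shared barcodes, the free RNA range, the denominator, the floors, the weight of barcodes and, added after seeing the data, members with over 10% mitochondrial UMIs.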

Additional observations from a re-analysis of the deposited data

Results flagged for a closer look

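The ratio of haemoglobin-dominated barcodes over free RNA had opposite signs in the libraries for mt-Nd4l, which encodes a subunit of mitochondrial complex I: log2 -0.10 in the Paqr4 transgenic library (95% interval -0.63 to 0.39 from counting error, which spans 0, so its sign is not determined), from 40 UMIs in the haemoglobin-dominated barcodes and 219 in free RNA, and 1.81 in the WT library, from 84 and 175. The difference between the libraries was not tested. Without the barcodes in which mitochondrial genes held over 10% of non-haemoglobin UMIs, the values were -3.35 and -2.17. This cut by itself lowers the level of mitochondrial genes. The eGFP feature, on which no comparison rests, had 4 UMIs in transgenic free RNA and 0 in WT free RNA.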

How the results depend on the processing

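Of 106 recomputed counts, 94 stayed within 1.5 times their value as reported. Without a level floor, genes 2-fold or more higher in haemoglobin-dominated barcodes than in free RNA numbered 565 in the Paqr4 transgenic and 680 in the WT library, and lower ones 4804 and 5728; between genotypes 555 genes were higher and 955 lower. With a floor of 50 UPM, lower genes than in free RNA numbered 1426 and 1150, and between genotypes 23 were higher and 126 lower; these settings let in genes with few UMIs. With no limit on genes, 2 were higher in the transgenic barcodes. With free RNA of 51 to 100 UMIs, 360 genes were lower in the transgenic library, where higher genes made up 40.0% of those called, against 26.7% as reported; the cause was not tested. With the UMIs outside haemoglobin, mitochondrial and ribosomal protein genes as the denominator, the median log2 ratio over all genes was -3.40 and -2.40, against -3.13 and -2.24. The WT mt-Nd4l ratio turned to -0.85 without the 5 barcodes richest in it, to -0.45 with barcodes weighted equally and to -2.17 without barcodes over 10% mitochondrial. Of 828 recomputed gene ratios over free RNA, 823 kept their direction, 65 moved beyond their counting interval and 3 are the reversals above; 30 of the 65 came with free RNA of 51 to 100 UMIs. That pool held 38515 non-haemoglobin UMIs from 652 transgenic barcodes, and 8 of the 15 highest genes had 0 UMIs in it, so their ratios become lower bounds (Hbq1b at least 2.21, Trim10 2.23, Tspan33 2.21, Tspo2 2.84, AI662270 2.90), while Nusap1, with UMIs there, had 3.16 against 6.79 as reported. Between genotypes 140 of 140 kept their direction. The non-haemoglobin UMIs of these barcodes limit levels to above about 10.7 UPM in the transgenic and 9.56 UPM in the WT library. No paired analysis was possible because each genotype has 1 library, so the groups share fewer than 2 replicate numbers; no replicate could be left out for the same reason.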

Other observations

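At 1000 or more UMIs, 109 Paqr4 transgenic and 64 WT barcodes had under 500 genes and did not meet the haemoglobin rule. Mitochondrially encoded genes held 84.6% of their non-haemoglobin UMIs in the transgenic and 65.3% in the WT library. The globin genes were also found in nearly all cells: Hbb-bs had a UMI in 97.8% of transgenic and 99.9% of WT cells. Few cells held most of these UMIs: 1519 of 1555 transgenic cells had at most 1% haemoglobin and together held 14148 of the 193598 haemoglobin UMIs of cells, and 1299 of 1339 WT cells held 19402 of 192307. In cells with at most 1% haemoglobin, the median share was 0.0491% and 0.0694%.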
